A study of Mus musculus with 6 samples.

Results

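The subunits of the oxidative phosphorylation machinery that are encoded in the nucleus were followed across lineage-marked cells of the mouse prostate. Members were taken by symbol: genes beginning Nduf followed by a, b, c, s or v and a number (complex I), Sdha to Sdhd (complex II), genes beginning Uqcr (complex III), Cox4 to Cox8 (complex IV) and Atp5 (complex V). Of 24498 genes in the table, 103 matched, of which 44 belonged to complex I, 4 to complex II, 10 to complex III, 21 to complex IV and 24 to complex V. By symbol 13 of the 103 are pseudogenes, and 4 members had no count in any library. The symbols leave out 4 nuclear-encoded parts of the chain (Cyc1, Cycs, Ndufab1 and Dmac2l), which are given separately.

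Epithelial cells were sorted by their fluorescent lineage mark from digested prostates of male mice, and their total RNA was sequenced in bulk. In the line labelled Nkx, a tamoxifen-inducible Cre recombinase (CreER(T2)) marked the cells with EYFP, and in the Clu line a CreER(T2) driven by Clu, the clusterin gene, marked them with tdTomato. Mice were castrated or left intact at 8 weeks of age, and tissue was taken 4 weeks later. The groups were Nkx intact, Nkx castrate and Clu intact, with 2 libraries each, and no castrated Clu group was analysed here. All groups thus carry a CreER(T2) and a reporter allele, and the lines differ in both, so line, reporter and cell type cannot be told apart between Clu and Nkx cells. Whether replicate libraries were made from different animals is not in the labels, and the p-values thus reflect only how these libraries varied, possibly for technical reasons. Values are given as replicate 1 and then replicate 2 of each group's pair of libraries.

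In oxidative phosphorylation, complexes I and II pass electrons from NADH and succinate to ubiquinone, complex III passes them to cytochrome c, and complex IV passes them to oxygen. Complexes I, III and IV pump protons across the inner mitochondrial membrane, and complex V, the ATP synthase, lets them flow back to make ATP. Most subunits are nuclear genes that must be matched to the few encoded in mitochondrial DNA. The prostate is a special case in metabolism, since its secretory luminal cells export citrate that other cells would oxidise, and androgen sustains this secretion.

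Nuclear respiratory factor 1 (NRF1) is a transcription factor known for binding GC-rich palindromes in the promoters of many respiratory genes. In RefSeq promoter windows (mouse build GRCm38.p6, 250 bases before to 50 after the gene start), 69 of 103 members had an entry, 66 of them tested for expression. The NRF1 motif, searched on both strands as the 10 letters in capitals below with any base at its middle variable position, was present in 17 of 66 members (25.8%) and in 10.8% of 10687 tested genes with a window. The motif CCGGAAG, bound by ETS factors, was in 25.8% of members and 18.7% of all, AAGATGGCG (YY1) in 10.6% and 3.31%, and TCAAGGTCA (oestrogen-related receptors) in 3.03% and 0.337%. GGGCGG, the SP1 box, was in 39.4% of members and 67.7% of all. The motifs were searched independently and may overlap. These shares describe the letters in the windows and say nothing of binding. The stretches below show the NRF1 letters (capitals) in the 250 bases before the start for the 3 members with several matches there (Cox6a1, Ndufb4 and Sdha), and for Ndufa8 and Sdhd as examples with 1, out of 13 tested members with a match. Each is 30 bases on the minus strand of GRCm38.p6, read 5′ to 3′.
Cox6a1, chr5:115349101-115349130: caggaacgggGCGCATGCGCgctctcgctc
Cox6a1, chr5:115349056-115349085: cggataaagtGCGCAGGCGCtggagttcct
Ndufb4, chr16:37654540-37654569: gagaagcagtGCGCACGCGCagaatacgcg
Ndufb4, chr16:37654428-37654457: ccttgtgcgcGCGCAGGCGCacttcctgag
Ndufb4, chr16:37654371-37654400: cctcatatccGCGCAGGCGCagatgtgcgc
Sdha, chr13:74350319-74350348: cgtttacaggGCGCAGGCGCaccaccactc
Sdha, chr13:74350276-74350305: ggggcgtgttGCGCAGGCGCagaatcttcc
Sdha, chr13:74350241-74350270: cgacacccgcgcgactcggtGCGCAAGCGC
Ndufa8, chr2:36049349-36049378: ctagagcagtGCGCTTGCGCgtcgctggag
Sdhd, chr9:50603909-50603938: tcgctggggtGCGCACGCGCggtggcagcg

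The promoters of Cox7a2l and Uqcr10 follow, because these were the members that passed the test between the intact groups, in opposite directions. Both are the 250 bases before the start on the minus strand of GRCm38.p6, with no annotated exon in the window, and capitals mark the SP1 letters of Cox7a2l. None of the 5 motifs was found in the Uqcr10 stretch, which says only that these letters are not in that window.
Cox7a2l, chr17:83514334-83514583: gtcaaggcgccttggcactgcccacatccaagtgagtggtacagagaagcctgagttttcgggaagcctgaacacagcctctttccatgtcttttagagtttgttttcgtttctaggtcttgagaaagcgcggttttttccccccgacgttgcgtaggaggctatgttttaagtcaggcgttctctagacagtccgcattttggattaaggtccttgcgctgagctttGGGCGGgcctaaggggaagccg
Uqcr10, chr11:4704345-4704594: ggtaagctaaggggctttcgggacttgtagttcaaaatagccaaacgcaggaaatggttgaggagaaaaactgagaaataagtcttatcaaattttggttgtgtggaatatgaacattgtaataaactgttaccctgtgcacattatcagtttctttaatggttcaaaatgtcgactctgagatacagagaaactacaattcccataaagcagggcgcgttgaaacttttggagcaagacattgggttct

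Library totals lay between 10220118 and 17412874 counts, and levels are given as CPM (counts scaled to a common library size) after TMM scaling, a correction for composition between libraries. A library called Nkx castrate 1 stood apart from the other 5. Of 20 fibroblast and smooth muscle markers, 17 were highest there, with a summed level of 3280 CPM against 733 to 979 CPM in the other libraries. Of 19 leukocyte markers, 17 were highest there (summed level 265 CPM), against 171 and 146 CPM in the intact Nkx pair and 51.0 to 57.4 CPM in the remaining 3 libraries. Cd3g was at 0 in both Nkx intact and both Clu intact libraries, and at 2.92 and 1.33 CPM in the castrate pair. No leukocyte marker was at 0 in Nkx castrate 1, which also had the highest total of counts. All 20 fibroblast and smooth muscle markers had counts in every library. Endothelial markers summed to 503 CPM in Nkx castrate 1, to 54.0 to 82.1 CPM in the other 3 Nkx libraries, and to 1145 and 473 CPM in Clu intact. The summed level of luminal epithelial markers was 5671 and 5225 CPM in the intact Nkx pair, 9418 and 12131 CPM in the castrate pair and 7928 and 8861 CPM in the Clu pair. Not all 9 luminal markers followed the sum. After castration 6 had a log2 fold change above 0 and 3 (Hoxb13, Cd24a and Foxa1) below. In Clu intact against Nkx intact 7 were above 0 and 2 (Krt18 and Hoxb13) below. Basal markers summed to 5993 to 6372 CPM in Nkx intact and Nkx castrate 1, and to 3790 to 3947 CPM in the other 3 libraries. The part of these other cell types in the subunit results was not tested. Since the samples are bulk RNA, fewer cells of a type and less RNA per cell cannot be told apart.

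Summed over all members, the subunit RNA was 5369 and 5700 CPM in the intact Nkx pair, 4069 and 5965 CPM in the castrate pair and 5769 and 6626 CPM in the Clu pair. Nkx castrate 1 was thus the lowest library, while Nkx castrate 2 lay above both Nkx intact libraries. The sums of complex I were 1565 and 1623 CPM in the intact Nkx pair, 1118 and 1549 CPM in the castrate pair and 1603 and 1828 CPM in the Clu pair. Complex V had the largest sums, with 1890 and 2017 CPM, 1552 and 2326 CPM, and 2188 and 2530 CPM in the same order. In complexes I to V alike Nkx castrate 1 held the lowest sum of the 6 libraries. Both Clu intact libraries lay above both Nkx intact libraries in complex II and complex V, but their ranges overlapped in complexes I, III and IV. The 13 mitochondrially encoded subunits, among them the core of complexes I and IV, summed to 5012 and 5586 CPM, 5777 and 5827 CPM, and 8177 and 6914 CPM in the same order. These sums rested on 7 genes, since the other 6 were at 5.55 CPM or less in every library. Whether the low counts of those 6 reflect their RNA levels was not tested. Nkx castrate 1 was not the lowest library in this sum, but it was the lowest for mt-Nd1 (447 CPM) and mt-Nd2 (234 CPM).

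**Figure D1:**
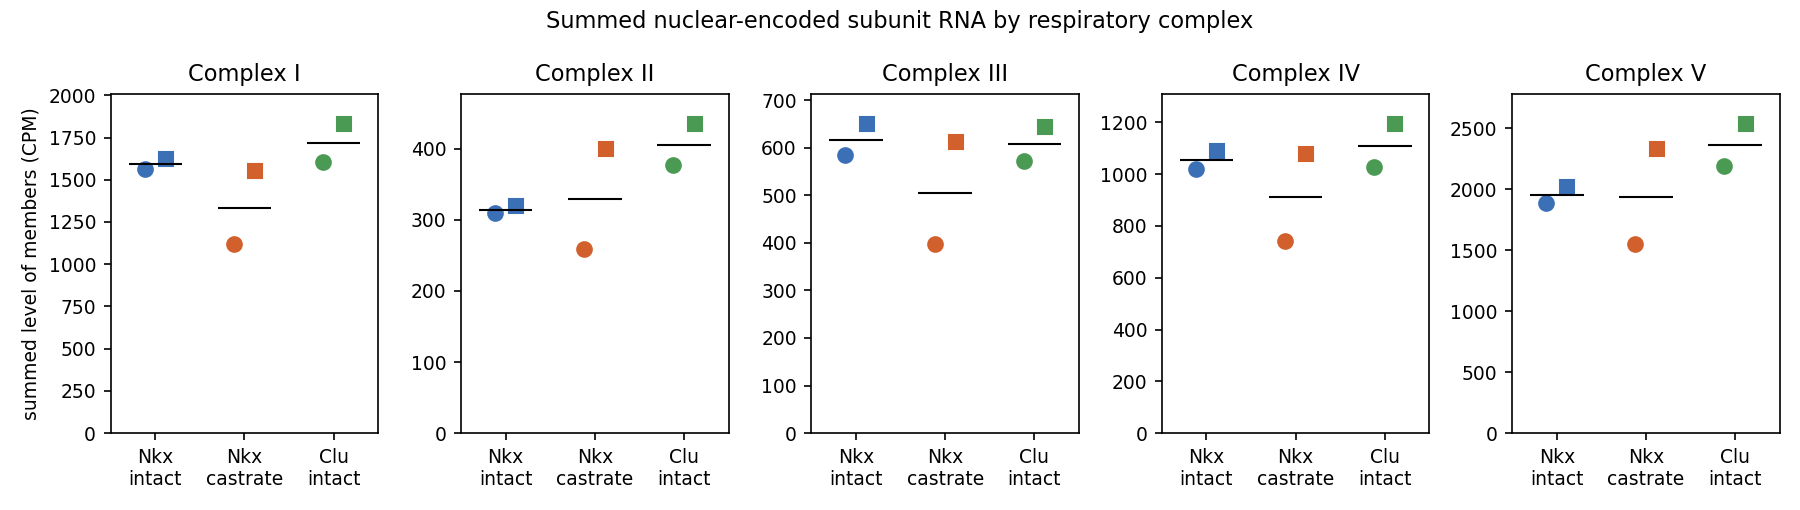
Summed level of the member genes (CPM, linear axis from 0) in each library, by respiratory complex. Circles are replicate 1, squares replicate 2 and lines the mean of 2 libraries. Nkx castrate 1 is the lowest library in each panel.

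Member by member, Nkx castrate 1 was lower than Nkx castrate 2 for 77 of 84 tested members. The median log2 ratio between these libraries was -0.47 over members and -0.02 over all tested genes, of which 51.3% were lower in Nkx castrate 1. It was the lowest of the 6 libraries for 58 of 84 members, a pattern held by 21.2% of tested genes. Against the mean of Nkx intact, the median member stood at -0.48 (log2) in Nkx castrate 1, 0.04 in Nkx castrate 2, 0.01 in Clu intact 1 and 0.28 in Clu intact 2. The 2 castrate libraries therefore disagree on whether subunit RNA was lower than in intact Nkx cells. Within Clu intact the median member was 0.21 (log2) higher in library 2 than in library 1.

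**Figure D2:**
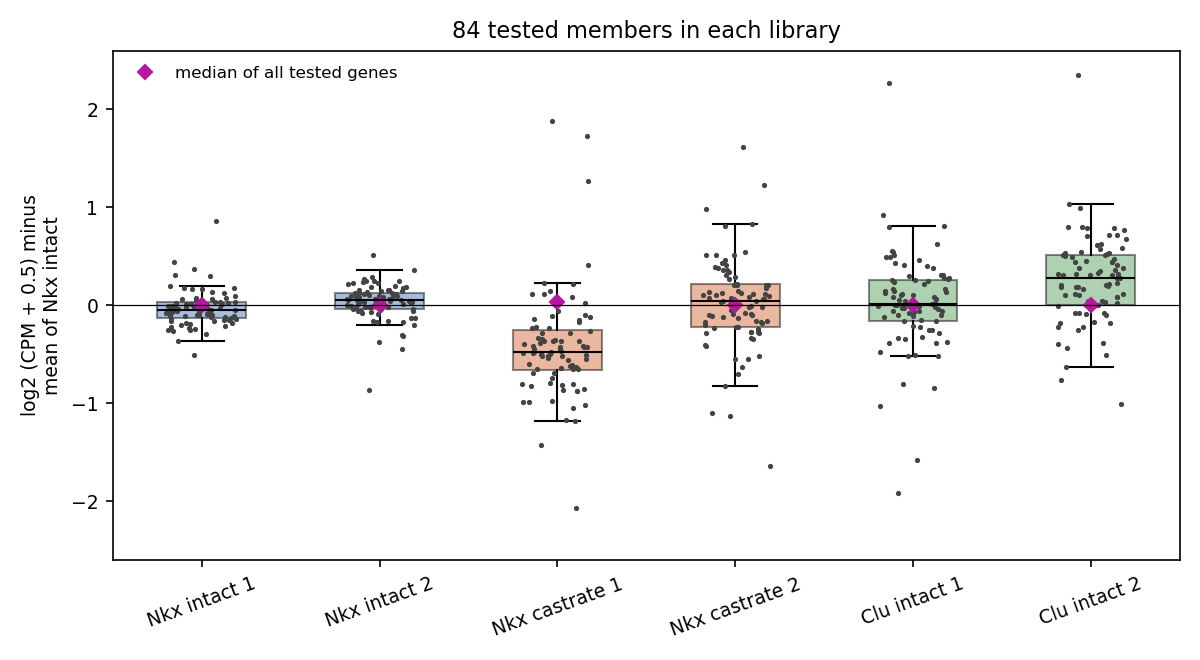
Difference of each of the 84 tested members from its mean in Nkx intact, as log2(CPM + 0.5), in each library. Boxes span the quartiles with the median as a line, whiskers reach the farthest point within 1.5 box heights, and diamonds are the median of all tested genes. The box of Nkx castrate 1 is shifted down to a median of -0.48 while the diamonds stay near 0.

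Between genes, levels were compared per kilobase of the longest coding transcript (GENCODE M21). Averaged over the 3 groups, the highest were Atp5b (the catalytic beta subunit of the ATP synthase) at 297 CPM per kb, Cox4i1 at 259, Cox6c at 243, Atp5h at 207 and Cox8a at 207. The median per-length level was 35.6 CPM per kb in complex I (36 genes), 37.2 in complex II (4), 71.7 in complex III (8), 92.3 in complex IV (14) and 97.6 in complex V (15). The ranges overlapped widely, from 1.79 to 171 CPM per kb in complex I, 1.39 to 259 in complex IV and 5.45 to 297 in complex V, and the difference in level was not tested. The low ends of complexes I and V were Ndufb2 and Atp5g1, divided by longest transcripts of 4371 and 4715 bases. Those ends thus depend on the choice of transcript.

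A filter on low counts kept 84 of the 103 members, 80 of which are not pseudogenes. The 19 untested members were low in every library (at most 1.63 CPM) and include pseudogenes and testis or muscle isoforms. Among the tissue-restricted isoforms of complex IV, Cox6a2 (heart and muscle) and Cox8c (testis) had no count in 74457288 counts over all libraries, where 3 counts would be 0.0403 CPM. Cox8b, Cox7b2 and Cox6b2 had at most 1.09 CPM. Cox4i2, the lung isoform of subunit 4, lay between 0.15 and 2.19 CPM, and Ndufa4l2, a hypoxia-inducible paralogue of Ndufa4, reached 1.63 CPM in Nkx castrate 1 and at most 0.40 CPM elsewhere. The ubiquitous partners were far above them, such as Cox4i1 at 129 to 274 CPM. Cox7a1, a muscle isoform, had 1.53 and 0.59 CPM in the intact Nkx pair, 4.43 and 4.07 CPM in the castrate pair and 0.93 and 1.88 CPM in the Clu pair. Both castrate libraries were the highest for Cox7a1, but edgeR's quasi-likelihood test gave an adjusted p of 0.206 (log2 fold change 1.99 ± 0.85, SE, Benjamini-Hochberg) between Nkx castrate and Nkx intact.

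The first comparison asks how subunit RNA differed after castration in Nkx-marked cells. Of 84 tested members, 0 were higher and 1, Ndufa1, was lower in Nkx castrate (edgeR's quasi-likelihood test on all 6 libraries, Benjamini-Hochberg adjusted p under 0.05 over 13846 genes), where 8.61% of all tested genes were called (4.02% higher, 4.59% lower). At an unadjusted p under 0.05, 3 members were higher and 8 lower, against 11.9% and 11.6% of all genes. DESeq2 called 0 higher and 5 lower (Cox6a1, Ndufa1, Ndufb6, Uqcr11 and Uqcrq), and limma-voom 0 higher and 1 lower, against 14.8% and 7.27% of all tested genes. The median log2 fold change of members was -0.20, against 0.05 for all tested genes, and 63 of 84 were below 0, against 47% of all. By complex the medians were -0.34, -0.14, -0.14, -0.19 and -0.12 for I to V. Without Nkx castrate 1 the median over members was 0.04 with 2 higher (Ndufa8 and Uqcr10) and 1 lower (Ndufa1), and the complex medians were -0.11, 0.28, 0.12, 0.04 and 0.12 for I to V, so that complexes II to V were above 0. Without Nkx castrate 2 it was -0.49 with 15 lower, so the sign of the median rests on Nkx castrate 1. For 52 of 84 members the 95% interval of the fold change lay within 2-fold in either direction, against 34.3% of all genes. In each of the 3 comparisons the median SE was 0.26 for members and 0.33 for all tested genes. Genes were not matched for count level, so these shares do not measure stability.

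Ndufa1, the small X-linked accessory subunit needed for complex I assembly, was at 51.5 and 63.8 CPM in the intact Nkx pair, 13.2 and 18.04 CPM in the castrate pair and 40.0 and 48.9 CPM in the Clu pair. Both castrate libraries were below the other 4, with a gap wider than the spread within any group. The log2 fold change of castrate against intact was -1.88 ± 0.26 (SE; 95% interval -2.48 to -1.29), a 3.69-fold difference, with an adjusted p of 0.00539 by the edgeR quasi-likelihood F test (Benjamini-Hochberg). Without Nkx castrate 1 it was -1.67, and without Nkx intact 2 it was -1.72 with the call lost. Either fit leaves 1 library in a group, which weakens the test. The other X-linked members, Ndufb11 and Cox7b, did not pass, with means of 71.6 ± 2.10 and 46.8 ± 17.8 CPM (SD, n = 2) for Ndufb11 and 88.2 ± 10.5 and 77.5 ± 18.7 CPM for Cox7b in Nkx intact and Nkx castrate.

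Both castrate libraries lay below both Nkx intact libraries for 29 members (24.6% of all tested genes did) and above for 7 (25.4%). Against all 4 intact libraries, they were below for 22 members (15.4% of all) and above for 2, Atp5d and Cox7a1 (15.1%). Of those 22, 15 were among the 38 tested members of complex I and 3 among the 9 of complex III. In complex IV there were 3 among 15, and in complex V 1 among 18. In complex I the 30 tested accessory subunits (Ndufa4 among them by symbol), which surround the core, had a median log2 fold change of -0.36 with 27 below 0, and the 7 core subunits, which carry out electron transfer, -0.12 with 5 below 0. The difference between these classes was not tested. Without Nkx castrate 1, complex I as a whole had a median of -0.11 with 23 of 39 below 0, against 32 of 38 in the main fit. The 2 classes were not summarised without that library. Ndufb6, an accessory membrane-arm subunit, was at 12.4 and 10.9, 5.50 and 5.17, and 11.5 and 13.6 CPM in Nkx intact, Nkx castrate and Clu intact. Its libraries do not overlap between castrate and intact, and it did not pass with edgeR (-1.12 ± 0.36, adjusted p = 0.102 with Benjamini-Hochberg adjustment). Its exons overlap Smim27 on the opposite strand, and the strand setting of the counting is not given, so its counts are uncertain.

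In complex III, Uqcr11, the smallest supernumerary subunit, was at 52.4 and 65.4 CPM in the intact Nkx pair, 32.2 and 35.8 CPM in the castrate pair and 61.2 and 70.9 CPM in the Clu pair. Uqcrq, a small subunit bound to cytochrome b, was at 104 and 140, 52.8 and 84.2, and 102 and 91.4 CPM in the same order. Both castrate libraries were the lowest for both genes, and neither passed against Nkx intact with edgeR (-0.79 ± 0.21, adjusted p = 0.0588, and -0.84 ± 0.26, adjusted p = 0.0974, Benjamini-Hochberg). Uqcr10, a small subunit beside cytochrome c1, went the other way, at 21.2 and 24.1, 30.2 and 40.0, and 39.8 and 46.8 CPM. Its fold change after castration was 0.63 ± 0.24 on the log2 scale with an adjusted p of 0.161 in the same edgeR test. In complex IV, Cox6a1, the ubiquitous form of subunit 6a, was at 69.8 and 76.8, 41.2 and 49.97, and 70.4 and 74.7 CPM, lowest in both castrate libraries. It too did not pass after castration (-0.69 ± 0.19, adjusted p = 0.0711, edgeR with Benjamini-Hochberg adjustment).

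In complex II, Sdha, the flavoprotein that oxidises succinate, was at 149 and 167 CPM in the intact Nkx pair, 160 and 225 CPM in the castrate pair and 232 and 259 CPM in the Clu pair. Sdhb, its iron-sulfur partner, was at 62.8 and 49.98, 35.4 and 46.4, and 44.7 and 60.4 CPM. After castration Sdha had a log2 fold change of 0.28 ± 0.20 and Sdhb one of -0.47 ± 0.25, and neither passed with edgeR (adjusted p of 0.458 and 0.313, Benjamini-Hochberg). In complex V, the 5 subunits of the F1 head and stalk had a median of 0.10 with 1 below 0, and the 5 membrane subunits one of -0.16 with all 5 below 0. Atp5e, the epsilon subunit, had the highest log2 fold change of the complex (0.30 ± 0.22), and Atp5k, the membrane subunit e, the lowest (-0.56 ± 0.37). Atp5d, the delta subunit, varied least, at 150 and 153, 161 and 165, and 156 and 151 CPM. Signs were mixed within the enzyme, the difference between its parts was not tested, and no member of complex V passed with edgeR, at an unadjusted p under 0.05 or with DESeq2 or limma-voom (0 in each).

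**Figure D3:**
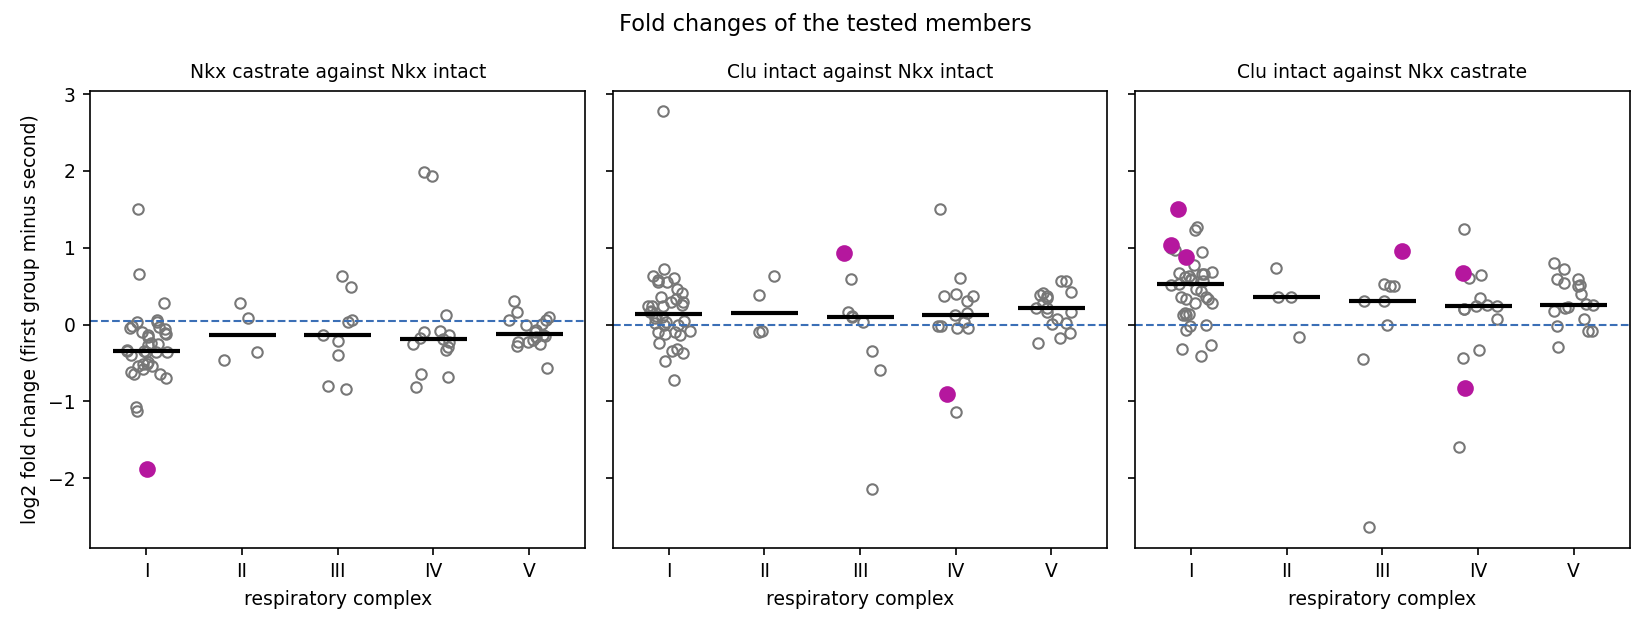
log2 fold change (first group minus second) of every tested member by respiratory complex, in the 3 comparisons. Filled points passed edgeR's test at an adjusted p under 0.05, black bars are the medians by complex and the dashed line is the median of all tested genes. After castration the black bars lie between -0.34 and -0.12, and between the Clu and Nkx intact groups they lie slightly above 0.

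The second comparison sets Clu-marked against Nkx-marked cells of intact mice. It shares its Nkx intact libraries with the first, and the third shares groups with both, so the 3 are not independent. Of 84 members 1, Uqcr10, was higher and 1, Cox7a2l, was lower in Clu cells, where 11.3% of all tested genes were called (6.29% higher, 5% lower). Unadjusted, 6 were higher and 2 lower, against 13.7% and 12.6% of all genes. The median log2 fold change was 0.16 for members and -0.01 for all tested genes, with 57 of 84 above 0 against 49.4% of all. Both Clu libraries lay above both Nkx intact libraries for 31 members (31.9% of all tested genes did) and below for 14 (31.3%), and 53 intervals lay within 2-fold (34.5%). DESeq2 called 2 higher and 1 lower, and limma-voom 0 higher and 1 lower, against 17.7% and 8.8% of all tested genes. Without Clu intact 2, the library with the highest subunit sum, it was 0.01, and without Clu intact 1 it was 0.26, so the size of the shift rests on the Clu library used.

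Uqcr10 had means of 22.7 ± 2.03 CPM in Nkx intact and 43.3 ± 4.97 CPM in Clu intact (SD, n = 2), and the libraries did not overlap. Its log2 fold change was 0.93 ± 0.24 (SE; 95% interval 0.38 to 1.49) with an adjusted p of 0.0449 by the edgeR quasi-likelihood F test (Benjamini-Hochberg). Cox7a2l, also called SCAF1, which links complexes III and IV into supercomplexes, was at 126 and 137 CPM in the intact Nkx pair, 105 and 145 CPM in the castrate pair and 64.3 and 77.2 CPM in the Clu pair. Both Clu libraries were below the other 4, and its paralogue Cox7a2, the subunit of complex IV itself, was at 27.9 to 35.1 CPM in the 4 intact libraries. The fold change of Cox7a2l was -0.90 ± 0.21 against Nkx intact (95% interval -1.39 to -0.41, adjusted p = 0.0326) and -0.82 ± 0.21 against Nkx castrate (adjusted p = 0.0337), both by edgeR with Benjamini-Hochberg adjustment. Between the intact groups, both calls were lost on leaving out Nkx intact 1, Nkx intact 2, Clu intact 1 or Clu intact 2. Such a fit leaves 1 library in a group, so a less stable gene and a weaker test cannot be told apart. Over the 6 libraries left out in turn, the log2 fold change was 0.83 to 1.06 for Uqcr10 and -1.02 to -0.76 for Cox7a2l.

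Members of complex V stood mostly above 0 in Clu cells, 15 of 18, with a median of 0.22 (0.12 without Clu intact 2 and 0.36 without Clu intact 1), and all 4 peripheral stalk subunits were above 0 (median 0.36). Atp5h, subunit d of that stalk, was at 125 and 143, 99.0 and 133, and 177 and 172 CPM in Nkx intact, Nkx castrate and Clu intact, and Atp5j, its coupling factor 6, at 83.1 and 102, 68.8 and 124, and 135 and 138 CPM. Both Clu libraries were the highest of the 6 for each gene, and neither passed with edgeR against Nkx intact (adjusted p of 0.259 and 0.246, Benjamini-Hochberg). Atp5j shares exon bases with Gabpa on the opposite strand, which makes its counts uncertain. Atp5g1, a gene of the c ring that turns with proton flow, had the highest log2 fold change of the complex at 0.57 ± 0.24, and Atp5g2, which encodes the same mature protein, the lowest at -0.24 ± 0.30. Sdha in complex II was 0.64 ± 0.20 higher in log2 terms (adjusted p = 0.0913 with edgeR and Benjamini-Hochberg adjustment), with both Clu libraries above the other 4.

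The third comparison sets Clu intact against Nkx castrate, and thus differs in line and in hormonal state. Of 84 members 5 were higher (Ndufa1, Ndufa13, Ndufc2, Uqcr11 and Cox6a1) and 1 lower (Cox7a2l) in Clu intact, where 16.9% of all tested genes were called (8.82% higher, 8.1% lower). Unadjusted, 22 were higher and 2 lower, against 16.1% and 16.4% of all genes. The median log2 fold change was 0.36 for members and -0.0030 for all tested genes, and by complex 0.53, 0.36, 0.31, 0.24 and 0.26. Both Clu libraries lay above both castrate libraries for 41 members (31.5% of all tested genes did) and below for 4 (30%), 66 members were above 0 (49.8%), and 36 intervals lay within 2-fold (28.2%). DESeq2 called 12 higher and 1 lower, and limma-voom 7 higher and 1 lower, against 24.8% and 16.8% of all tested genes. Without Nkx castrate 1 it was 0.14 (0.31, 0.16, 0.12, 0.11 and 0.04 by complex), with 6 higher and 3 lower, and without Nkx castrate 2 it was 0.64, with 35 higher and 0 lower. Ndufa1, Ndufa13, Ndufc2 and Uqcr11 were higher with or without Nkx castrate 1, and Cox6a1 was not called without it (adjusted p = 0.0814, edgeR with Benjamini-Hochberg adjustment). Calls of members as higher were also lost without Clu intact 1, except that of Ndufa1, and all were lost without Clu intact 2. Both fits leave 1 Clu library and so weaken the test. Over all libraries left out in turn, the log2 fold change of Ndufa1 was 1.30 to 1.75 and that of Uqcr11 0.87 to 1.09. Without Nkx intact 1, or without Nkx intact 2, 2 members were called higher, Ndufa1 and Uqcr11. The lower call of Cox7a2l was kept without Nkx castrate 1 (-1.04) and lost without any other library.

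The log2 fold change was 1.51 ± 0.25 for Ndufa1 (adjusted p = 0.00695), 0.96 ± 0.21 for Uqcr11 (0.0187), 0.88 ± 0.22 for Ndufa13 (0.0290), 1.04 ± 0.27 for Ndufc2 (0.0354) and 0.67 ± 0.19 for Cox6a1 (0.0497), with the Benjamini-Hochberg adjusted p of the edgeR quasi-likelihood F test in parentheses. Ndufa13, also known as GRIM-19, was at 87.9 and 92.5 CPM in the intact Nkx pair, 51.5 and 74.4 CPM in the castrate pair and 108 and 123 CPM in the Clu pair. Ndufc2, of the membrane arm of complex I, was at 29.3 and 28.6, 17.7 and 23.7, and 34.7 and 50.3 CPM. In both genes the order was castrate below Nkx intact below Clu intact in every library, while Ndufa1 and Cox6a1 were not lower in Nkx intact than in Clu intact by their means. Ndufa13 shares exon bases with Tssk6 on the opposite strand, so its counts are uncertain. Among the members that did not pass, Ndufb6 (1.23 ± 0.36, adjusted p = 0.0517), Ndufa4 (0.99 ± 0.30, 0.0608) and Ndufs4 (0.97 ± 0.30, 0.0631) had the lowest adjusted p by edgeR (Benjamini-Hochberg), together with Atp5g1 (0.80 ± 0.24, 0.0574). Ndufa4, counted here in complex I by its symbol, is now placed in complex IV.

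**Figure D4:**
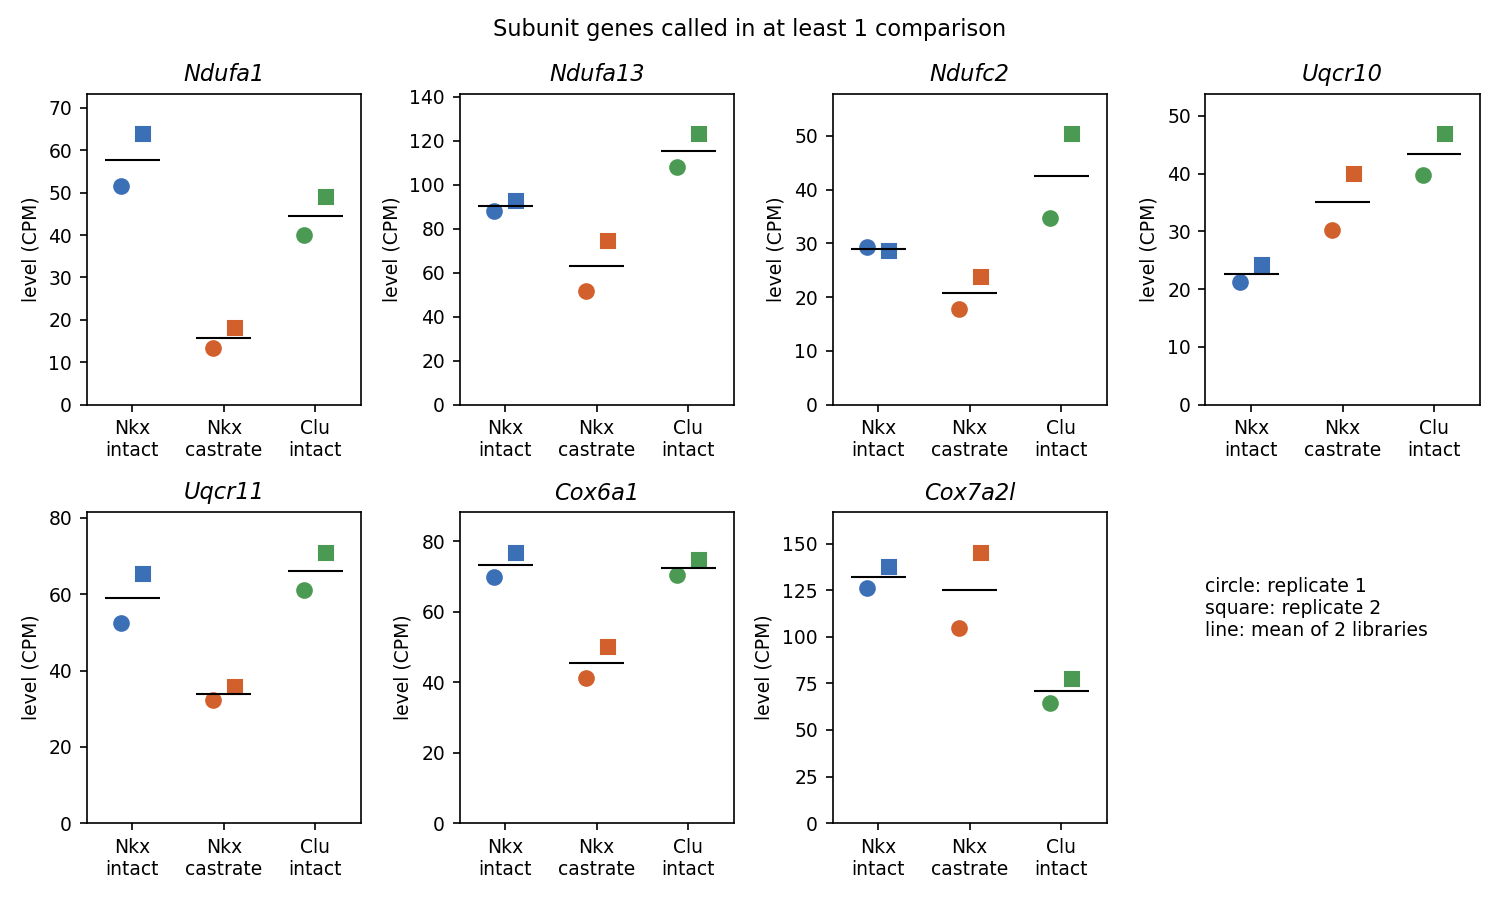
Level (CPM, linear axis from 0) of the 7 members called in at least 1 comparison. Circles are replicate 1, squares replicate 2 and lines the mean of 2 libraries. Ndufa1, Uqcr11 and Cox6a1 are low in both castrate libraries, Uqcr10 is lowest in Nkx intact, and Cox7a2l is low in both Clu libraries.

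Some members sat at the ends of their complex without passing the test. Ndufa8, an accessory subunit on the intermembrane side of complex I, was at 36.5 and 37.9, 43.2 and 74.2, and 46.1 and 42.3 CPM in Nkx intact, Nkx castrate and Clu intact, so that its highest value came from Nkx castrate 2. Ndufb4, a membrane-arm subunit, was at 8.42 and 7.51, 3.26 and 4.29, and 4.22 and 5.46 CPM, with both Nkx intact libraries highest. The membrane anchors of complex II differed in order, with Sdhd at 38.3 and 35.1, 19.8 and 37.7, and 44.5 and 51.0 CPM and Sdhc at 59.0 and 68.4, 44.3 and 90.6, and 56.7 and 63.7 CPM. Both anchors spread widest between the castrate libraries, where library 2 was the higher. The 4 tested pseudogenes were not called in any comparison, and their reads may belong to the parent genes. Among them, Ndufa12-ps was at 1.148 and 0.00, 1.68 and 1.63, and 3.88 and 4.14 CPM, Uqcrh-ps1 at 1.72 and 2.37, 1.80 and 3.99, and 0.17 and 0.75 CPM, and Cox5b-ps at 7.84 and 7.31, 3.93 and 4.73, and 2.19 and 4.70 CPM. Cox6c2, a copy of the Cox6c gene, was at 0.57 and 0.20, 2.69 and 0.30, and 1.01 and 1.22 CPM. At such levels a few counts set the fold change, and most low counts were even numbers (76.6% to 82.8% per library among genes with few counts), with SEs of 0.55 to 1.34 on the log2 scale over these 4 genes.

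Regulators of the amount of the respiratory chain were taken as a separate list. Of 16 tested regulators of mitochondrial biogenesis 3 rose and 0 fell after castration (edgeR, Benjamini-Hochberg), where 4.02% of all tested genes were called higher and 4.59% lower. DESeq2 called 3 higher and limma-voom 2. The 3 called by edgeR were Hif1a, Pprc1 and Ppargc1a (PGC-1 alpha). Hif1a is the oxygen-sensitive factor known for turning cells towards glycolysis, and Pprc1 and Ppargc1a are coactivators of mitochondrial biogenesis. The 3 thus differ in their known action. Ppargc1a was at 16.8 and 17.4 CPM in the intact Nkx pair, 29.5 and 36.7 CPM in the castrate pair and 23.7 and 22.1 CPM in the Clu pair, with both castrate libraries highest. Its log2 fold change was 0.95 ± 0.24 with an adjusted p of 0.0494 in the edgeR test, lost without any of the other libraries except Nkx castrate 1. Hif1a rose by 1.29 ± 0.17 in log2 terms (adjusted p = 0.00427) and Pprc1 by 1.14 ± 0.22 (adjusted p = 0.0182) by edgeR with Benjamini-Hochberg adjustment, and both calls were lost without Nkx intact 1 or without Nkx intact 2. Hif1a was at 134 and 123, 297 and 333, and 141 and 130 CPM, so that the castrate libraries stood apart from both intact groups.

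Nrf1 was at 39.6 and 43.0, 44.3 and 41.2, and 37.7 and 26.3 CPM, and Tfam, which maintains mitochondrial DNA, at 20.5 and 15.8, 13.3 and 20.6, and 20.8 and 20.3 CPM. Neither was called in any comparison. In Clu intact against Nkx castrate, Esrra, an oestrogen-related receptor that acts with PGC-1, was higher (1.02 ± 0.29, adjusted p = 0.0483, edgeR with Benjamini-Hochberg adjustment) and Hif1a and Pprc1 were lower (-1.22 ± 0.17 and -1.66 ± 0.22). The Esrra call was lost on leaving out any library except Nkx castrate 2, and that of Hif1a without Clu intact 2 (adjusted p = 0.0555 in the same edgeR test). Of 16 regulators, 0 were called between the intact groups (1 unadjusted, 0 with DESeq2 or limma-voom), where edgeR called 11.3% of all tested genes.

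Of 45 tested assembly factors, 2 were higher in Clu intact than in Nkx intact, where 6.29% of all tested genes were called higher. DESeq2 called 4 of them higher there and limma-voom 1. In the castration comparison and in Clu intact against Nkx castrate 0 were called with edgeR (4 and 6 unadjusted), 0 and 1 with DESeq2, and 0 and 1 with limma-voom. There edgeR called 8.61% and 16.9% of all tested genes. Coa4, a factor of complex IV assembly, was at 2.30 and 1.19, 3.37 and 5.62, and 11.7 and 14.3 CPM, and Ndufaf1, of complex I assembly, at 1.91 and 1.78, 3.82 and 3.99, and 8.02 and 7.71 CPM in Nkx intact, Nkx castrate and Clu intact. Both rose in Clu cells (2.89 ± 0.56, adjusted p = 0.0159, and 2.09 ± 0.53, adjusted p = 0.0439, edgeR with Benjamini-Hochberg adjustment), and both calls were lost without any of the 4 intact libraries. Among 21 genes of mitochondrial mass and carriers Tomm20, a receptor of the outer membrane import pore, was the 1 gene called by edgeR in Clu intact against Nkx castrate, where 8.1% of all tested genes were called lower. It was lower in Clu intact than in Nkx castrate (-0.90 ± 0.16, adjusted p = 0.00802 by edgeR with Benjamini-Hochberg adjustment), at 86.2 and 86.1 CPM against 155 and 166 CPM, with 118 and 118 CPM in Nkx intact. That call was lost without Clu intact 1 or without Clu intact 2. Over the 21 genes the median log2 fold change in Clu intact against Nkx castrate was 0.24, with 14 above 0 and 7 below. edgeR called 0 of the 21 after castration and 0 between the intact groups, against 8.61% and 11.3% of all tested genes.

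The 12 tested mitochondrially encoded subunits had 0 calls in the 3 comparisons, where 8.61%, 11.3% and 16.9% of all tested genes were called. At an unadjusted p under 0.05, 0, 3 and 4 were higher and 0 lower, against 11.9%, 13.7% and 16.1% of all genes higher. DESeq2 called 0, 3 and 3 of the 12, all higher, and limma-voom 0, 1 and 1. With so few genes, 0 calls do not show that nothing changed. The median log2 fold change was 0.14 after castration, 0.40 for Clu against Nkx intact and 0.20 for Clu intact against Nkx castrate, with 5, 4 and 5 of the 12 below 0. Between the intact groups those 4 were mt-Nd3, mt-Nd4l, mt-Co2 and mt-Atp6, each at 5.55 CPM or less. How multiply aligned reads were counted is not given, so such low counts may not reflect RNA levels. The 7 genes above 5.55 CPM were higher in both Clu libraries than in both Nkx intact libraries (31.9% of all tested genes were). Without Nkx castrate 1 or 2 the median was 0.06 or 0.07 after castration, and 0.37 or 0.38 for Clu intact against Nkx castrate. The most negative was mt-Nd3, at -2.82 for Clu against Nkx intact, a gene at 0.15 to 5.55 CPM. mt-Co1, the catalytic subunit of complex IV, was at 1676 and 1856, 2125 and 1888, and 3013 and 2601 CPM, with both Clu libraries highest. The 4 nuclear subunits outside the symbol rule had 0 calls with edgeR, DESeq2 or limma-voom (3, 1 and 0 unadjusted with edgeR). Over all tested genes edgeR called 8.61%, 11.3% and 16.9% in the 3 comparisons. Dmac2l, an ATP synthase factor, was at 1.82 and 2.96, 5.28 and 10.05, and 6.33 and 5.74 CPM in Nkx intact, Nkx castrate and Clu intact, lowest in Nkx intact. Ndufab1, the mitochondrial acyl carrier protein, was at 13.7 and 24.0, 16.9 and 20.9, and 19.2 and 23.7 CPM, with overlapping groups. Cyc1 (cytochrome c1) was at 57.4 and 59.4, 37.7 and 46.0, and 48.5 and 57.1 CPM, and Cycs (cytochrome c) at 35.6 and 37.5, 26.9 and 23.7, and 30.3 and 36.7 CPM, lowest in the castrate libraries for both.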

How the data were processed

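RNA of marker-sorted mouse prostate cells (2 ng per library, prepared with a strand-keeping kit meant for little input, per the labels' protocols) was sequenced in 6 libraries. The authors deposited raw counts per gene symbol, checked here as whole numbers with differing column totals. The submitters' processing notes name featureCounts from Subread 2.0.1, build GRCm39, the aligner STAR 2.7.9a and FastQC 0.11.9. The annotation release, the strand setting and how multiply aligned reads and UMIs were treated: not given in the sources used here. Pseudogenes, close paralogues, mitochondrially encoded genes and genes overlapping on opposite strands are uncertain for that reason. Between 59.8% and 66.6% of nonzero counts per library were even, and 76.6% to 82.8% among genes with over 6 and under 60 counts in all, so a count may not stand for 1 independent fragment and the floor of 3 counts and the counting error of low genes may be understated. The cause was not tested.

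In R 4.3.3, edgeR 4.0.16 filtered genes (filterByExpr on the 3 groups, 13846 of 24498 kept), scaled by TMM and fitted a mean per group over all 6 libraries (glmQLFit, 3 residual degrees of freedom, biological coefficient of variation 33.7%). Comparisons were two-sided quasi-likelihood F tests, Benjamini-Hochberg adjusted over all tested genes, called at an adjusted p under 0.05. SE and 95% intervals come from the model. Libraries of a group differed beyond sampling noise. Intervals and floors cover counting error only where they rest on counts alone. Promoters and lengths come from RefSeq (GRCm38.p6) and GENCODE M21, an earlier build than that of the counts.

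The members, gene lists and tests were chosen with earlier results of these data known. Named were, per comparison and complex, up to 4 called members in each direction and those with the highest and lowest log2 fold change, tissue-restricted isoforms, and up to 3 called genes of each pathway list with Ppargc1a, Esrra, Nrf1 and Tfam. Others (among them Ndufb6, Atp5d, Atp5h, Atp5j, Ndufa4, Ndufs4, Cyc1, Cycs and mt-Co1) were picked after their values were seen. Alternatives were other scaling, filters, DESeq2 1.42.0, limma-voom (limma 3.58.1), fewer libraries in the fit, a replicate block and a 1.2-fold minimum. The code was tested on simulated data.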

Additional observations from a re-analysis of the deposited data

How the results depend on the processing

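With 2 libraries a group, calls near the threshold moved with the setting, and the causes were not tested. After castration the number of members called lower (1) was 3 with library totals only, 4 with no filter on low counts, 3 at 10 CPM or more in 2 libraries, 5 with DESeq2 and 3 with the replicate block. The share of all tested genes called, in either direction, moved from 8.61% to 8.51%, 11.6%, 13.5%, 14.8% and 10.9% in the same order. In Clu against Nkx intact the number called higher (1) was 2 with library totals only, 3 with no filter, 2 with DESeq2, 0 with limma-voom, 5 with only the groups compared, 2 with the replicate block and 0 with a 1.2-fold minimum, and the number called lower (1) was 2 with only the groups compared and 0 with the fold minimum. Over all tested genes 11.3% became 11.3%, 13.4%, 17.7%, 8.8%, 25.1%, 14.2% and 9.32%, in the order given for higher. In Clu intact against Nkx castrate the number called higher (5) was 11 with library totals only, 11 with no filter, 9 at 10 CPM, 12 with DESeq2, 2 with only the groups compared, 9 with the replicate block and 3 with the fold minimum, and the number called lower (1) was 0 with only the groups compared and 0 with the fold minimum. Over all tested genes 16.9% became 17.9%, 17.7%, 26.4%, 24.8%, 11.9%, 20.1% and 13.9%, in the order given for higher. Replicate numbers were not treated as pairs: same-numbered libraries deviated together with r = 0.105, 0.059 and 0.263 across genes.

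Leaving out each library in turn gave 0 to 2 higher and 0 to 15 lower after castration with a median of -0.49 to 0.041, 0 to 6 higher and 0 to 2 lower for Clu against Nkx intact, and 0 to 35 higher and 0 to 3 lower for Clu intact against Nkx castrate with a median of 0.14 to 0.64. A group left with 1 library was assumed to vary like the others. For a call lost in such a fit, a less stable gene and a weaker test cannot be told apart. Genes that were not called changed sign without a library, with these log2 ranges: after castration Nrf1 (-0.020 to 0.11), Tfam (-0.45 to 0.18) and Cox4i2 (-2.62 to 0.13); for Clu against Nkx intact Sdhb (-0.32 to 0.11), Cox7a1 (-0.18 to 1.24) and Cox4i2 (-0.34 to 1.32); for Clu intact against Nkx castrate Ndufa8 (-0.75 to 0.042), Sdhc (-0.59 to 0.45) and Atp5g2 (-0.65 to 0.17). With no filter the median of all genes was 0.18 after castration and -0.18 for Clu intact against Nkx castrate. The median over all members kept its sign in every setting that used all libraries of the groups compared.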
